A study of Mus musculus with 5 samples.

Results

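A two-colour array set cardiac progenitor cells that carried Nkx2.5 against undifferentiated mouse stem cells that carried Rex1. It is 1 of the 5 arrays of the study, chosen by its title, and all of its 28845 gene probes were described, which stand for 24800 genes and transcripts. The Nkx2.5 population was in the Cy5 channel and the Rex1 population in the Cy3 channel, so a positive log2 ratio below means more signal in Nkx2.5. The pair was hybridised on 1 array with no exchange of dyes and no replicate. Values carry no error from repeated samples, and the populations could not be compared by a test.

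The cells came from embryoid bodies, aggregates of embryonic stem cells that form beating heart muscle in culture. The labels name 4 marker-positive populations. Rex1-positive undifferentiated cells (gene Zfp42) were taken at day 0, and Bra-positive early mesoderm (gene T) and Flk1-positive cardiac mesoderm (gene Kdr) at day 4.5. The Nkx2.5 cells, described as cardiac progenitors, were taken at day 7.5. The labels used here name neither the stem cell line nor the way marker-positive cells were isolated, and do not mention pooling. The other 4 arrays set Bra and Flk1 each against Rex1, and Nkx2.5 against Bra and against Flk1, each on 1 array with the later population in Cy5. In such bulk populations, fewer cells of a type and less RNA per cell cannot be told apart.

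Nkx2-5 encodes a homeodomain transcription factor that marks the progenitors of the early heart. In the heart it acts with GATA, MEF2, TBX and serum response factors on genes of the contractile apparatus, such as the troponins and myosin light chains. Undifferentiated stem cells hold a separate network around Oct4 (gene Pou5f1), Sox2 and Nanog, which keeps genes such as Zfp42, Dppa2 and Gdf3 active and is shut down as cells commit to a germ layer.

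Promoter sequences of 5 genes that the comparison turns on, 3 of them higher in Nkx2.5 and 2 higher in Rex1, are shown to place the readings beside the DNA upstream of each gene. They are the 200 bases before the transcription start in RefSeq on build GRCm38.p6, matched by gene symbol. The labels and headers name no build for the array's own probes. For Tnnt2, cardiac troponin T (chr1:135836134-135836333, plus strand, the first of 2 starts), capitals mark a GATA word. For Myl7, the atrial regulatory myosin light chain (chr11:5898783-5898982, minus strand), they mark a CCAAT word and a CArG box, the word bound by serum response factor. For Hbb-y, an embryonic beta globin (chr7:103853208-103853407, minus strand), they mark CCAAT. For Zfp42 (chr8:43307010-43307209, minus strand) they mark an octamer, 2 GC boxes and an inverted CCAAT, and for Nanog (chr6:122707289-122707488, plus strand, the first of 2 starts) a joined Oct and Sox word.
Tnnt2: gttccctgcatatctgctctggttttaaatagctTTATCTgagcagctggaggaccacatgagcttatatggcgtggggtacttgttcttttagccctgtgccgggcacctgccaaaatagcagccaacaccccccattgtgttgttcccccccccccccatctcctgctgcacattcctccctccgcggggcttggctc
Myl7: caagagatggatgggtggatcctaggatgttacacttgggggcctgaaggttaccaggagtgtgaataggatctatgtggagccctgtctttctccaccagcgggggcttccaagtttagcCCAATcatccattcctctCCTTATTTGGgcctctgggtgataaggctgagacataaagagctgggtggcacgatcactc
Hbb-y: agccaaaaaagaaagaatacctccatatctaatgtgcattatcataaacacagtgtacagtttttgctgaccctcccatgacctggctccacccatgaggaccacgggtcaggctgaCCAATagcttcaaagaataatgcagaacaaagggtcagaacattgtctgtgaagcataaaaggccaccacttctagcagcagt
Zfp42: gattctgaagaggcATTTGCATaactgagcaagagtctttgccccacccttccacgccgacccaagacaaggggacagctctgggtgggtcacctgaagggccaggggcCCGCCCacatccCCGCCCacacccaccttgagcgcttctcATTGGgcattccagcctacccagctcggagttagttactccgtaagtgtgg
Nanog: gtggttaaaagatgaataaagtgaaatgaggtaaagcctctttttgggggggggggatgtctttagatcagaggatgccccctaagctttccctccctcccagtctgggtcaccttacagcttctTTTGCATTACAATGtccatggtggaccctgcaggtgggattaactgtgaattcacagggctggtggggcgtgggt

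The words were searched on both strands in the 250 bases before the start, over 32851 RefSeq windows of that length. The GATA word AGATAA was in 9.99% of all windows, TATAAA in 12.4%, CCAAT in 33.8%, the GC box GGGCGG in 32.7%, the octamer ATGCAAAT in 1.60% and the CArG box in 1.47%. The Oct-Sox word, which overlaps the octamer in part, was in 2 windows in all. Of the 28 measured sarcomere genes 24 had a window, of which 7 held the GATA word and 6 a CArG box. Of the 174 genes found higher in Nkx2.5 below, 100 had a window, and 16 of these held the GATA word and 4 a CArG box. Of the 144 found lower 46 had one, and 1 held the GATA word and 0 a CArG box. The other words differed from their share of all windows too. The GC box was in 53 of the 100 higher windows and 24 of the 46 lower ones, and CCAAT in 36 and 24. TATAAA was in 12 and 5 and the octamer in 0 and 2. The 7 sarcomere genes found higher all had a window, of which 2 held the GATA word and 2 a CArG box. These are matches of letters, described here without a claim that any factor binds them.

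Each gene was read 3 times. The direct reading is the array itself. A route through Bra adds the log2 ratio of Bra over Rex1 to that of Nkx2.5 over Bra, and a route through Flk1 adds the corresponding pair, so neither route shares an array with the direct reading. Where 3 values follow a gene name below, they are the direct reading, the route through Bra and the route through Flk1. The second reading averages both routes. A gene was higher or lower where direct and second readings both reached a log2 ratio of 1 in size, a fold of 2, and the brighter population was well above background. Well above background means a net signal over percentile 95 of 96 negative control spots in that channel. Over all genes the direct reading differed from the route through Bra by an SD of 0.346 and from the route through Flk1 by an SD of 0.369. Were the 5 arrays to have equal, unrelated errors, that of 1 array would be 0.206 on the log2 scale, which covers hybridisation and labelling only.

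Signal was weaker in the Rex1 channel. The median net signal on this array was 2520 for Rex1 against a local background of 8192, and 3358.5 for Nkx2.5 against 3591, and 81.0% and 93.7% of probes were well above background. The 8 blocks of spots in the last 2 of 12 block rows had the highest Cy3 background on all 5 arrays, on this one 9477.5 to 10159.5 against 7724.5 to 9323 in the other 40 blocks. With an array-wide loess the block medians of this array ran from 0.14 to 0.69 in those 8 blocks and from -0.35 to 0.13 elsewhere. That scaling gave 602 higher genes (2.43% of all) and 174 lower (0.702%), so 77.6% of calls were higher, and 492 of the 602 lay in the 8 blocks, which hold 16.3% of genes. Ratios were therefore normalised by loess within each block, which is used in all that follows. The 8 blocks then held 61 of 174 higher and 48 of 144 lower genes, and the SD of direct ratios was 0.51 inside and 0.37 outside them. Named genes that passed and whose probe lies there are said to lie in the last 2 block rows. The part of background in their ratios was not tested.

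**Figure D1:**
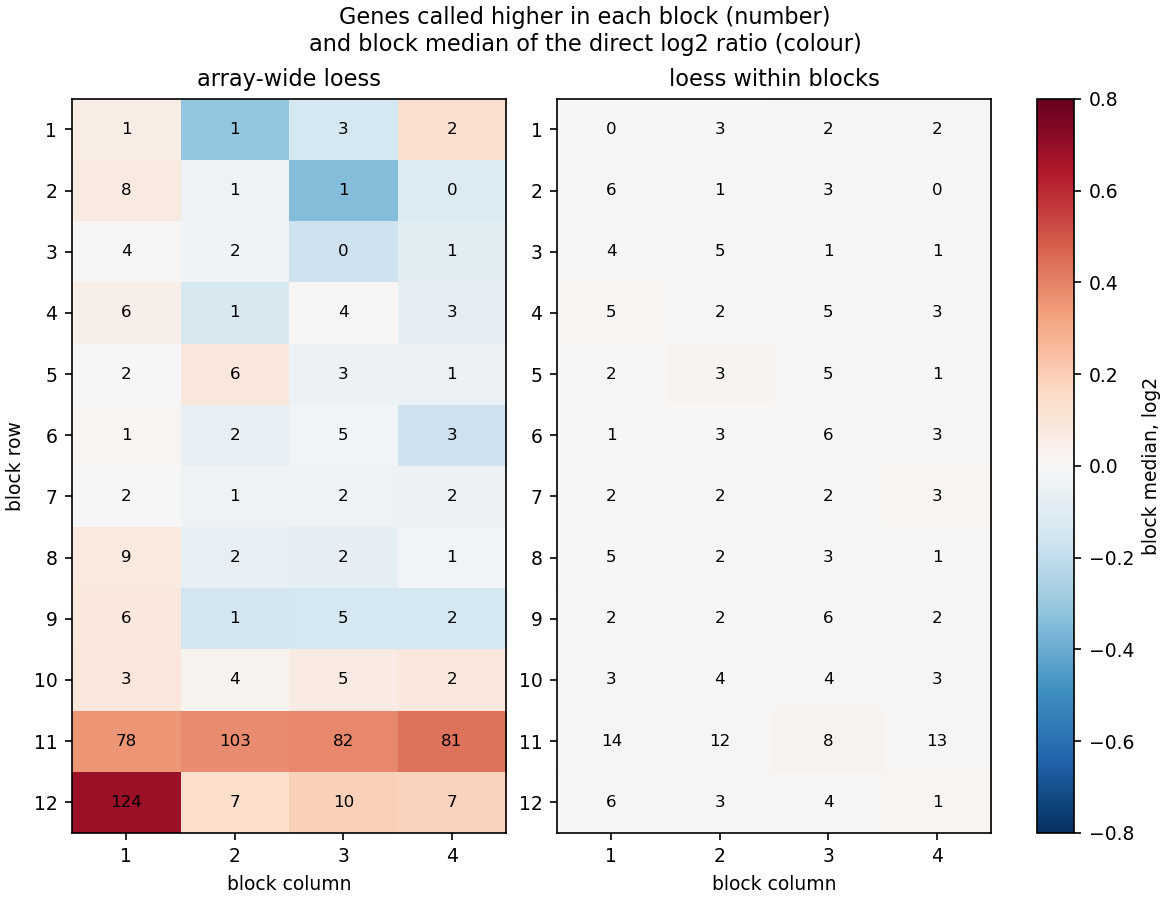
Number of genes called higher in Nkx2.5 over Rex1 in each of the 48 blocks of the array, by block row and column, with the colour giving the block median of the direct log2 ratio. Under array-wide loess 492 of 602 calls lie in block rows 11 and 12; under loess within blocks these rows hold 61 of 174.

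The markers of the label ran in its direction. Tnnt2 had a net signal of 9885 in Nkx2.5 and 1755 in Rex1, and its log2 ratios were 2.53, 2.73 and 2.19. Myl7 had 14720 and 2178.5, with ratios of 2.5, 2.80 and 1.8, and it lies in the last 2 block rows. Zfp42, the gene of Rex1, had 5874 and 13964, with ratios of -1.82, -2.38 and -2.27. These are direct folds of 5.78 and 5.67 higher and 3.54 lower, and each gene was beyond the size on all 3 readings. Nkx2-5 itself had net signals of 6988 and 3825 and ratios of 0.63, 0.76 and 1.53, above 0 on all 3 but short of the size on the direct array. T and Kdr, the markers of the populations in between, had direct ratios of 0.01 and 0.08. The labelled difference is thus seen in contractile genes and in Zfp42, while the Nkx2-5 transcript itself did not pass.

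In all, 174 genes and transcripts were higher in Nkx2.5 (0.702% of 24800) and 144 were lower (0.581%). Of these, 100 higher and 135 lower genes were well above background in both populations, which is 0.497% and 0.671% of the 20127 genes so measured. For the other 74 higher genes Rex1 was dim, and they are 2.38% of the 3108 genes dim in Rex1 and bright in Nkx2.5. The direct array alone gave 362 higher (1.46%) and 278 lower (1.12%). Of the 362 the second reading kept 174, and it was below 0 for 6. Most genes lay near 0, with 2.5% of direct ratios below -0.83 and 2.5% above 0.85. Outside the last 2 block rows 0.544% of genes were higher and 0.462% lower.

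**Figure D2:**
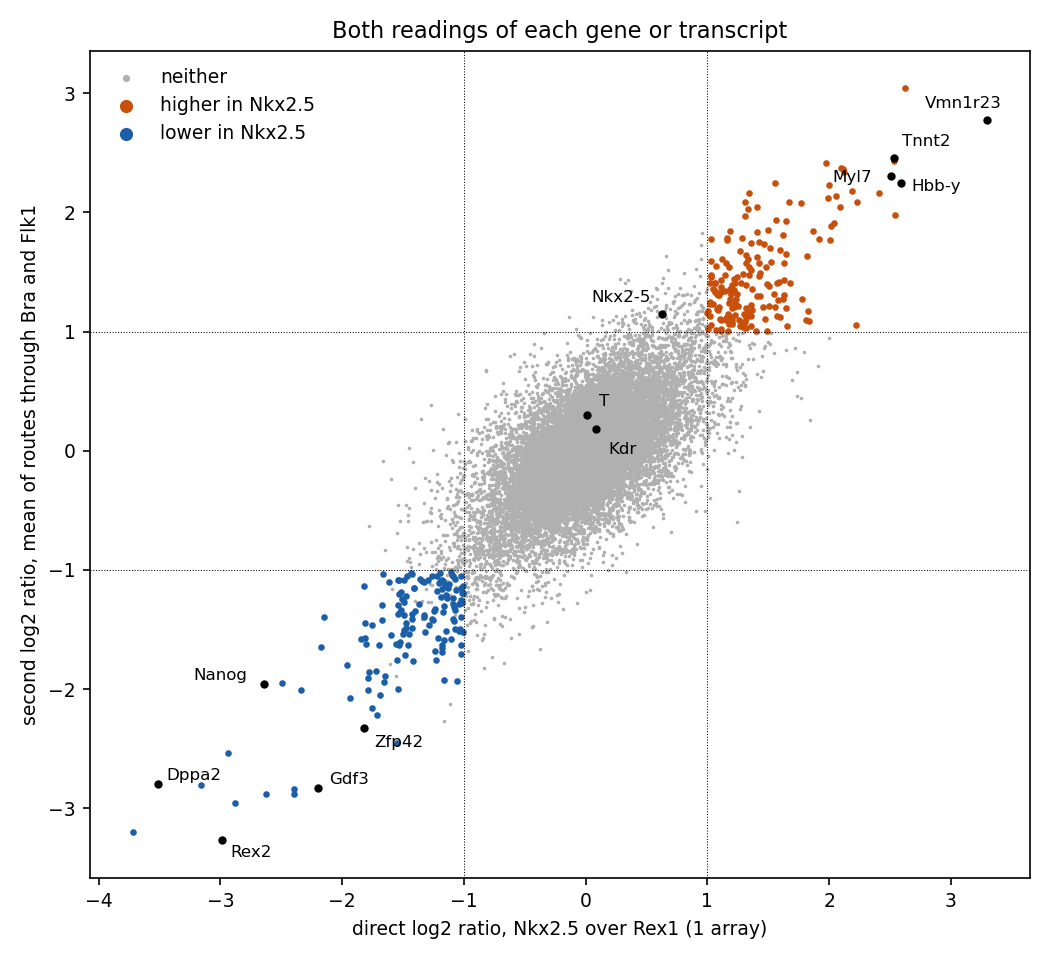
Direct log2 ratio of Nkx2.5 over Rex1 (horizontal) against the second reading (vertical), 1 point per gene or transcript, with dotted lines at the size of 1. The 174 higher and 144 lower genes lie in opposite corners, Tnnt2 at 2.53 and 2.46 and Rex2 at -2.99 and -3.27, while Nkx2-5 lies at 0.63 and 1.14.

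Contractile genes led the higher side. Of 28 measured sarcomere genes 7 were higher and 0 lower, against 0.702% and 0.581% of all genes, and the list had a direct median of 0.59 and a second median of 0.67, where all genes had 0.01 and 0.01. Myl4, the atrial and embryonic essential light chain, had net signals of 18078 and 4447 and ratios of 1.67, 2.20 and 1.98. Ankrd1, a cardiac ankyrin repeat protein of the sarcomere and nucleus, had 4024 and 1452, with ratios of 1.63, 1.39 and 1.77. Tnnc1, troponin C of heart and slow muscle, had 11098 and 3643, with 1.43, 1.23 and 1.36. Together with Tnnt2 these show troponin and light chain transcripts higher on all 3 readings. The remaining higher members were Myl3, the ventricular essential light chain, at 1.29 and 1.48 on direct and second reading, and Tnni1, the troponin I of slow and fetal muscle, at 1.33 and 1.16. Myl7, Myl4 and Myl3 lie in the last 2 block rows, and without these rows 5 of 24 sarcomere genes were higher, with a median of 0.54.

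Other sarcomere genes moved less. Of the 28, 23 were above 0 on all 3 readings and 3 below 0. Actc1, cardiac actin, had 0.53, 0.51 and 0.46, and Ttn, titin, 0.85, 0.71 and 0.88, so neither reached the size. Csrp3, a muscle LIM protein, had 0.72, 0.88 and 0.87. The ventricular light chain Myl2 had 1.07, 1.37 and 0.59, and its second reading of 0.98 fell just short. Myoz2, which anchors calcineurin at the Z-disc, went against the list at -0.51, -0.49 and -0.79. Of the myosin heavy chains, Myh7 read 0.03 on the direct array. Myh6 has 2 probes, which gave different answers. The brighter probe of Myh6 read -0.14, -0.21 and -0.22, and the other, dim in Rex1, read 2.94, 1.53 and 2.21.

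**Figure D3:**
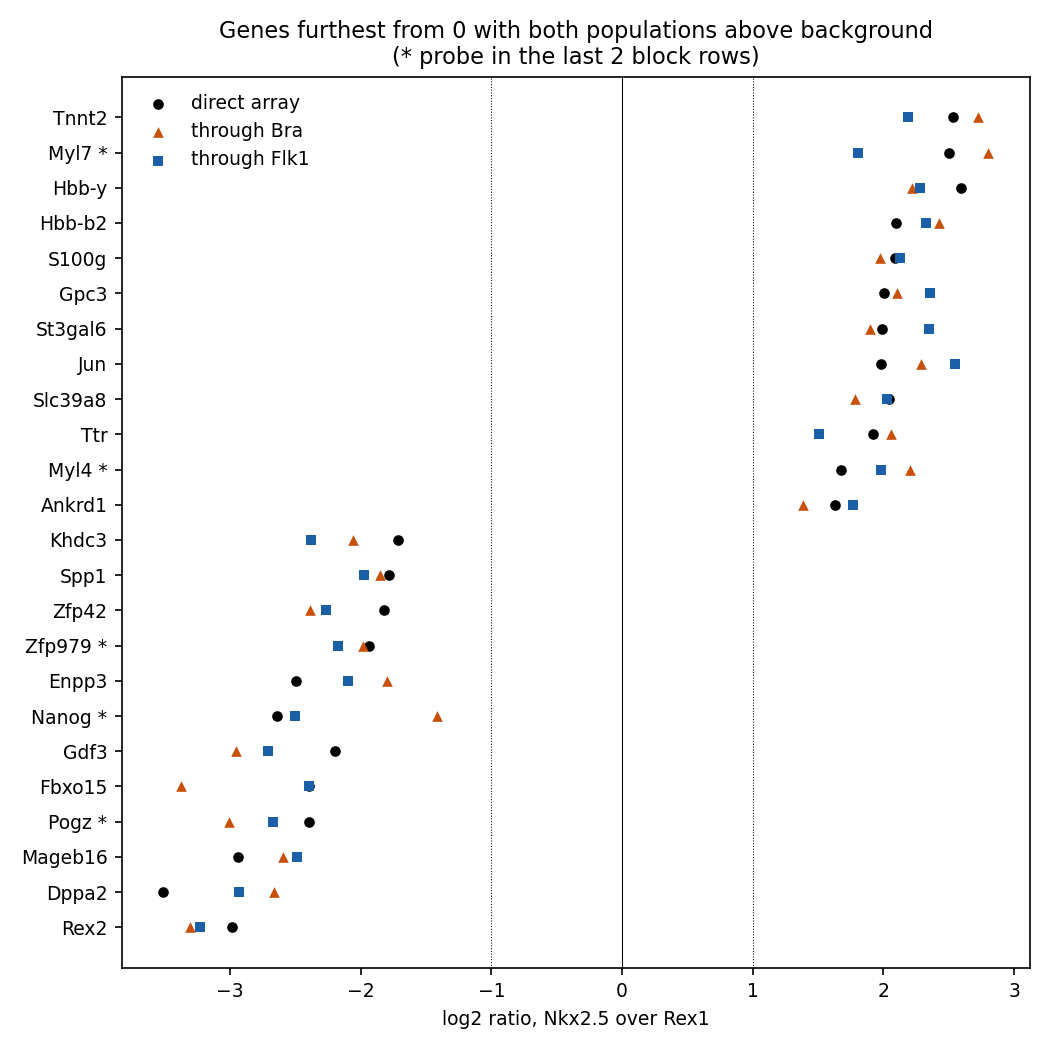
The 3 log2 ratios of Nkx2.5 over Rex1 (direct array, route through Bra, route through Flk1) for the 12 highest and 12 lowest named genes that were well above background in both populations. On the higher side the ratios run from 1.39 for Ankrd1 to 2.80 for Myl7, and on the lower side Nanog has the widest spread, from -2.64 to -1.41.

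Of 18 smooth muscle genes measured 2 were higher (11.1%, against 0.702% of all genes) and 0 lower. Their medians were 0.32 and 0.39, and 13 were above 0 on all 3 readings. Tagln, transgelin, had net signals of 8259 and 2756.5 and ratios of 1.31, 1.91 and 2.26. Acta2, smooth muscle actin, which early heart muscle also makes, had 8818 and 3793.5 and ratios of 1.0, 1.53 and 0.78, just at the size, and it passed in 13 of 21 settings. Myh11, the smooth muscle myosin heavy chain, had -0.01, -0.02 and -0.05.

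Few regulators and no gene of the excitation machinery of heart muscle passed. Where 1.28% of all genes passed in either direction, lists of this length may hold none, so a count of 0 is not a result. Of 28 cardiac transcription factor genes 1 was higher (3.57%, against 0.702% of all genes), with list medians of 0.17 and 0.13. It was Isl1, a LIM homeodomain factor of second heart field progenitors, with net signals of 5833.5 and 2362.5 and ratios of 1.06, 1.20 and 1.62. Hand2, a basic helix-loop-helix factor of the early heart, had 0.42, 0.91 and 0.56, Tbx5 0.36, 0.46 and 0.73 and Gata6 0.21, 0.16 and 0.27. The other probe of Gata6 read -0.19, -0.44 and -0.52. Mef2a went against the list at -0.68, -0.42 and -0.68, with its other probe at 0.09 on the direct array. Tbx1, a T-box factor of the second heart field, was read from its probe with ratios of -0.01, 0.07 and 0.05, but its other probe read 1.8, 2.08 and 2.32, past the size on all 3, with net signals of 10480 and 2747.5. Of 30 genes of calcium handling, ion channels and natriuretic peptides 0 passed, with medians of 0.05 and 0.07. Jph2, junctophilin, was furthest from 0 at 0.89, 0.72 and 0.77 and lies in the last 2 block rows. Atp2a2, the calcium pump of the reticulum, had 0.21, 0.18 and 0.13. Skeletal muscle genes, a check on the kind of muscle, gave 0 of 16 passing and medians of -0.07 and -0.01. Mylpf, the fast skeletal light chain, was at -0.99, -0.80 and -0.68.

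Markers of other lineages were higher as well, which is to be read beside the cardiac genes. Of 25 blood genes 6 were higher (24%, against 0.702% of all genes) and 0 lower, with medians of 0.21 and 0.25. Of the 6 higher genes 0 lie in the last 2 block rows. Hbb-y had net signals of 11957 and 1934.5 and ratios of 2.59, 2.21 and 2.28. Hbb-b2, an adult beta globin, had 14595 and 2963, with 2.10, 2.42 and 2.32, and Hbb-bh1, an embryonic one, had 27426 and 10024, with 1.31, 1.49 and 2.44. Globin genes resemble each other in sequence, so probes of the family may share targets and may not be independent. Cd24a, a surface protein of many progenitors, had 1.20, 1.59 and 1.08. Epor, the erythropoietin receptor, read -0.14, -0.03 and -0.12, and Gata1, an erythroid factor, 0.18, 0.20 and 0.34. Globins were thus high where the erythroid receptor and factor did not pass, and the part of red cells in the Nkx2.5 sample was not tested.

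Endoderm genes gave 6 higher (17.6%, against 0.702% of all genes) and 0 lower of 34, with medians of 0.27 and 0.27. Afp, alpha-fetoprotein, had net signals of 6628 and 1172.5 and ratios of 2.11, 2.05 and 2.69, with Rex1 dim on all 3 arrays. Ttr, transthyretin, had 16449 and 3640.5, with 1.92, 2.05 and 1.5, and Apoc2, an apolipoprotein, 3044.5 and 1298.5, with 1.17, 1.12 and 1.17. Spink1, a trypsin inhibitor of gut and pancreas, read 2.22, 1.43 and 0.67, so its routes disagreed. Shh, sonic hedgehog, read 1.16, 0.94 and 2.63, with Rex1 dim on all 3 arrays. Its lower bound, set as described below, was 1.60-fold. Fgg, fibrinogen, opposed the list at -0.31, -0.39 and -0.32. Afp, Spink1 and Shh lie in the last 2 block rows, without which 3 of 28 endoderm genes were higher.

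Some keratins and junction proteins were higher. Of 25 epithelial genes 5 were higher (20%, against 0.702% of all genes) and 0 lower, with medians of 0.24 and 0.30, and 20 did not pass. Krt8 and Krt18, the keratin pair of simple epithelia, had ratios of 1.5, 1.44 and 1.32 and of 1.57, 1.52 and 1.29. The claudins Cldn7 and Cldn6 had 1.25, 1.42 and 1.49 and 1.20, 1.16 and 1.04. Marveld2, tricellulin, had 1.77, 0.99 and 1.55 with Rex1 dim. Cdh1, E-cadherin, which stem cells hold too, read 0.24, 0.32 and 0.47, and Tjp3 opposed the list at -0.25, -0.52 and -0.37. Krt18 and Marveld2 lie in the last 2 block rows, without which 3 of 21 were higher.

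**Figure D4:**
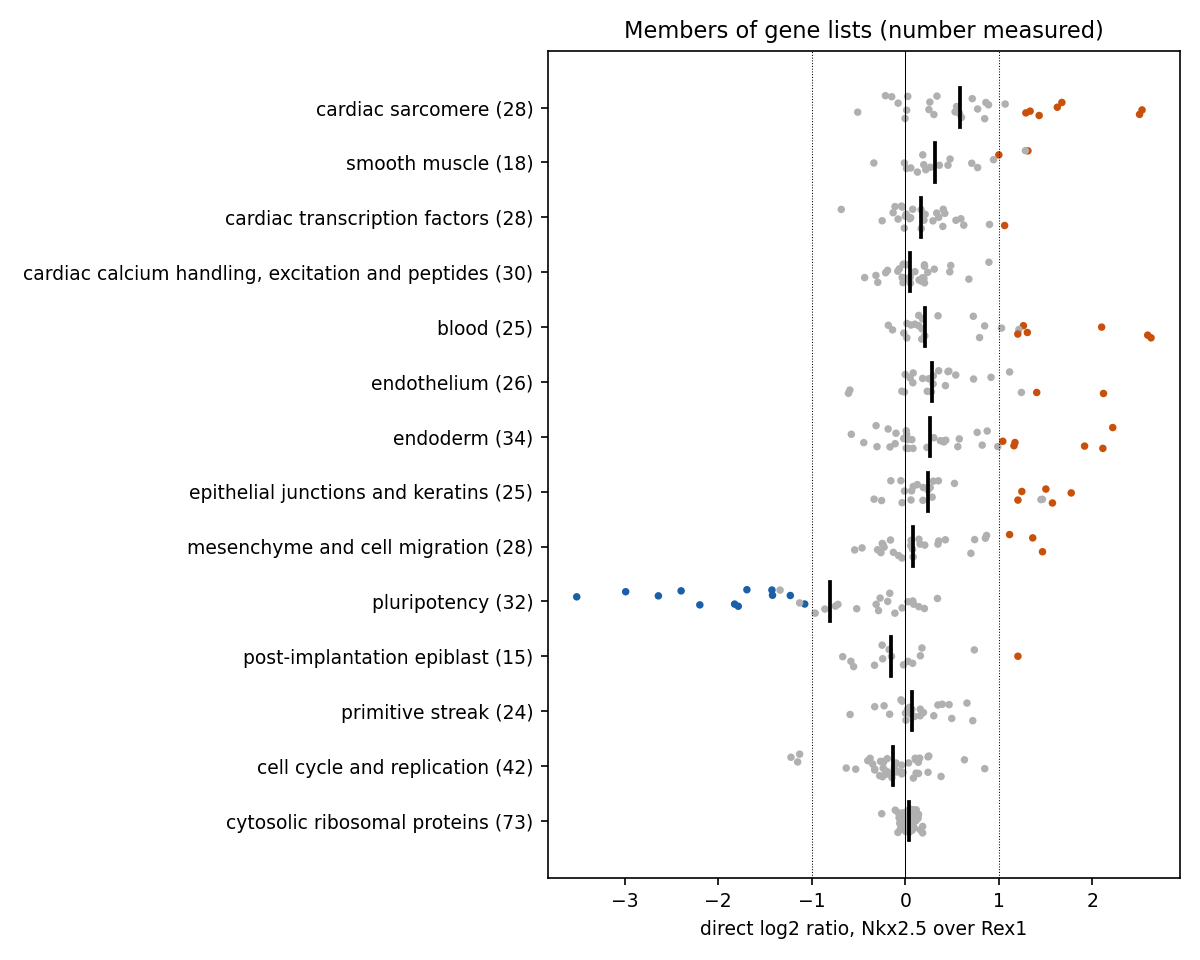
Direct log2 ratios of Nkx2.5 over Rex1 for the members of 14 gene lists, 1 point per gene, with the median as a bar and dotted lines at the size of 1; points in orange passed as higher and in blue as lower. Sarcomere genes have a median of 0.59 and pluripotency genes one of -0.80, while 73 ribosomal protein genes stay between -0.25 and 0.19.

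Mesenchyme, matrix and vessel lists had few members past the size. Of 28 mesenchyme genes 3 were higher (10.7%, against 0.702% of all genes). Tgfb2, a growth factor of the heart cushions, had net signals of 8509.5 and 2773.5 and ratios of 1.47, 1.63 and 1.84. Anxa2, an annexin, had 1.36, 1.29 and 1.42, and Cdh2, the N-cadherin of heart muscle and mesoderm, 1.12, 1.51 and 1.35. Of 45 matrix genes 2 were higher (4.44%). They were Col4a1 of the basement membrane at 1.41, 1.46 and 2.21 and the gelatinase Mmp2 at 1.49, 0.39 and 1.61. The 4 probes of Col4a1 spanned -0.61 to 1.41 on the direct array. Of 26 endothelial genes 2 were higher (7.69%), both dim in Rex1 on this array. Nrp1, a receptor for VEGF and semaphorins, read 2.12, 2.29 and 2.39, and Gng11, a G protein subunit, 1.41, 1.37 and 1.23. The endothelial adhesion gene Pecam1 read -0.04, 0.06 and 0.10. Anxa2, Col4a1 and Nrp1 lie in the last 2 block rows. Without these rows 3 of 24 mesenchyme, 2 of 42 matrix and 1 of 23 endothelial genes were higher. Of 11 epicardial genes 0 passed, with Krt19 furthest at 1.47, 0.97 and 0.76.

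Some stress and growth arrest genes were also higher. Of 30 immediate early and stress genes 2 were higher (6.67%, against 0.702% of all genes), with medians of 0.15 and 0.18. Jun, a subunit of the AP-1 transcription factor, had net signals of 9879.5 and 2239.5 and ratios of 1.98, 2.29 and 2.55. Atf3, a stress-induced factor, had 3813.5 and 487, with 2.54, 1.76 and 2.20, and Rex1 was dim. Cdkn1a, the p21 inhibitor of cyclin kinases, had 1.20, 0.99 and 1.14 and Plk2, a p53 target, 1.18, 1.41 and 1.06. They make 2 of 24 in their list (8.33%). Proliferation genes did not pass in either direction, where 1.28% of all genes did, a share at which a list of 42 may hold none. Of 42 cell cycle genes 0 were called, with medians of -0.13 and -0.07, Mybl2 at -1.13, -1.17 and -0.81 and, in the opposite direction, Mki67 at 0.85, 0.77 and 0.79.

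S100g, Gpc3, Slc39a8 and St3gal6 were among the 12 highest genes and outside these lists. S100g, a calcium-binding protein, had net signals of 6099 and 1467 and ratios of 2.09, 1.97 and 2.13. Gpc3, a cell surface proteoglycan, had 7012.5 and 1699, with 2.0, 2.10 and 2.36. Slc39a8, a zinc and manganese transporter, had 5120 and 1405.5, with 2.04, 1.79 and 2.03. St3gal6, a sialyltransferase, had 1.99, 1.90 and 2.35, but its dimmer probe read 0.49 on the direct array. H19, Nnat and B2m were not among the 12 highest and belong to further lists. H19, an imprinted non-coding RNA high in embryonic mesoderm and endoderm, had 14666 and 4754, with 1.41, 1.35 and 1.90. With Nnat, at 1.32, 1.08 and 1.15, it made 2 of 26 imprinted genes (7.69%, against 0.702% of all genes). The other 2 probes of Nnat read -0.22 and 0.42 on the direct array, and with the median of its probes Nnat did not pass. B2m, the light chain of MHC class I, had 9349.5 and 2600.5, with 1.63, 1.28 and 1.58, while 0 of the other 15 genes of class I presentation passed.

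For the genes dim in Rex1 the size of the difference is less certain. Vmn1r23, annotated as a vomeronasal receptor, had the highest direct ratio of all, at 3.30, 3.09 and 2.45, with net signals of 10428 and 1118.5. Nrep, at 2.23, 2.26 and 1.91, was dim in Rex1 on this array and above background on 1 of the 3 arrays with Rex1. Where a gene was dim on all 3, a lower bound on the fold was set against the dimmest signal still above background. The bounds of Vmn1r23, Afp, Nrp1 and Atf3 lay above at least 1 of their readings, so no fold is given. Of 58 such bounds 37 lay below both the direct and the second reading, so the bounds were not always met. Acvr1, a BMP receptor, had 1.55, 2.21 and 2.28 and a bound of 2.49-fold, with a net Rex1 signal of 0 on this array. It was the only one of 29 BMP pathway genes to pass. Acvr1 lies in the last 2 block rows, without which 0 of 23 passed. Of 874 odorant, vomeronasal and taste receptor genes, most of which are silent outside sensory organs, 6 were higher (0.686%), close to the 0.702% of all genes, and 3 lower. A share near the background is not a result about these receptors.

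Stem cell genes led the lower side. Of 32 pluripotency genes 12 were lower (37.5%, against 0.581% of all genes) and 0 higher. Their medians were -0.80 and -0.88, and 26 were below 0 on all 3 readings. Dppa2, a chromatin protein of early embryos, had net signals of 1173 in Nkx2.5 and 6337.5 in Rex1 and ratios of -3.51, -2.66 and -2.93, a direct fold of 11.4 lower. Rex2, a zinc finger gene of stem cells, had 1598.5 and 6717, with -2.99, -3.31 and -3.23. Fbxo15, an F-box gene of stem cells, had 2212.5 and 7173.5, with -2.40, -3.37 and -2.39, and Gdf3, a TGF-beta family ligand, 2842.5 and 8149, with -2.20, -2.95 and -2.71. These genes stayed well above background in Nkx2.5 on all 3 of its arrays. On this array 773 of the 874 odorant, vomeronasal and taste receptor genes were above the same cut in Nkx2.5. Signal above the cut thus does not show that transcript remained. The transcripts were reduced, and neither their absence nor their presence in Nkx2.5 was shown.

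Nanog was lower at -2.64, -1.41 and -2.50, with net signals of 1788 and 3585.5. It lies in the last 2 block rows, and its direct ratio was -1.76 under array-wide loess and -1.42 in the series table, and under neither did both of its readings pass. Without those rows 11 of 29 pluripotency genes were lower. Tdh, threonine dehydrogenase, which feeds the folate cycle of mouse stem cells, had 5305.5 and 13384, with -1.69, -2.17 and -1.93. Klf5 read -1.42, -1.61 and -1.36 and Tcl1 -1.42, -1.92 and -1.61. Spp1, osteopontin, had 4097.5 and 9678, with -1.78, -1.85 and -1.97. The core factors differed among themselves. Sox2 was at -0.86, -0.78 and -1.20, while Pou5f1 was at -0.29, -0.21 and -0.32, with net signals of 11946 and 12619. Probes of Pou5f1 may also take up transcripts of its pseudogenes. Tbx3, also used by heart progenitors, went against the list at 0.20, 0.67 and 0.77.

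A few genes of germ cells and of chromatin were lower. Mageb16, a MAGE gene, had net signals of 875 and 4060 and ratios of -2.94, -2.60 and -2.49. Khdc3, a gene of oocytes and stem cells, had 2509 and 4454, with -1.71, -2.06 and -2.38. Of 11 germ cell genes 2 were lower (18.2%, against 0.581% of all genes), with medians of -0.14 and -0.18. They were Dazl at -1.07, -0.81 and -1.35 and Sycp3 at -1.02, -0.97 and -1.34. Both passed in 12 of 21 settings, and 0 of the 11 passed where all 3 readings had to pass or from the series table. Of 29 genes of DNA methylation and Polycomb 2 were lower (6.9%). Dnmt3l, the cofactor of de novo methylation, read -1.23, -1.90 and -1.62 and Mtf2 of Polycomb -1.16, -1.39 and -1.22. Pogz, a chromatin zinc finger gene, had 3517.5 and 10202, with -2.40, -3.01 and -2.67, and Zfp979 read -1.93, -1.98 and -2.17, both in the last 2 block rows. Enpp3, an ectonucleotidase, had -2.50, -1.80 and -2.10, but its other probe gave a direct ratio of -0.91 and a second one of -0.13. Stmn2, a neuronal stathmin, was the only neural gene to pass of 28, at -1.18, -1.59 and -1.79.

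Only 9 lower genes were dim in Nkx2.5 on this array, and of these the naming rule took Morc3 at -1.30, -0.89 and -1.28, Efcab3 at -1.44, -0.24 and -1.82 and Il21 at -1.67, -0.43 and -1.64. Their routes through Bra fell short of the size.

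The routes also split each difference into a step from day 0 to day 4.5, read on Bra over Rex1 and Flk1 over Rex1, and a step from day 4.5 to day 7.5, read on the arrays of Nkx2.5 against each of these. The populations were isolated by different markers, so a step sets populations side by side and does not follow the same cells. The steps add up to the second reading, on which genes were chosen, so the split is a description. A gene was placed in a step where both of its arrays reached the size. Of all genes 0.117% were higher and 0.327% lower over the first step, and 0.31% and 0.0806% over the second.

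More higher genes were placed in the later step than in the earlier, and more lower genes in the earlier, but most genes of either direction were placed in neither. Of the 174 higher genes 55 were placed in the later step and 15 in the earlier, and 104 reached the size on both arrays of neither. Of the 144 lower genes 48 were placed in the earlier step, 4 in the later, 3 in both and 89 in neither. The median step of the lower genes was -1.01 from day 0 to 4.5 and -0.37 from day 4.5 to 7.5, and that of the higher genes was 0.60 and 0.82. Among higher genes well above background in both populations the medians were 0.43 and 1.05, with 44 of 100 in the later step and 6 in the earlier. Among the 74 higher genes with Rex1 dim the order was the other way, with medians of 0.75 and 0.58 and the earlier step the larger in 42. Over all 174 the earlier step was the larger in 75.

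**Figure D5:**
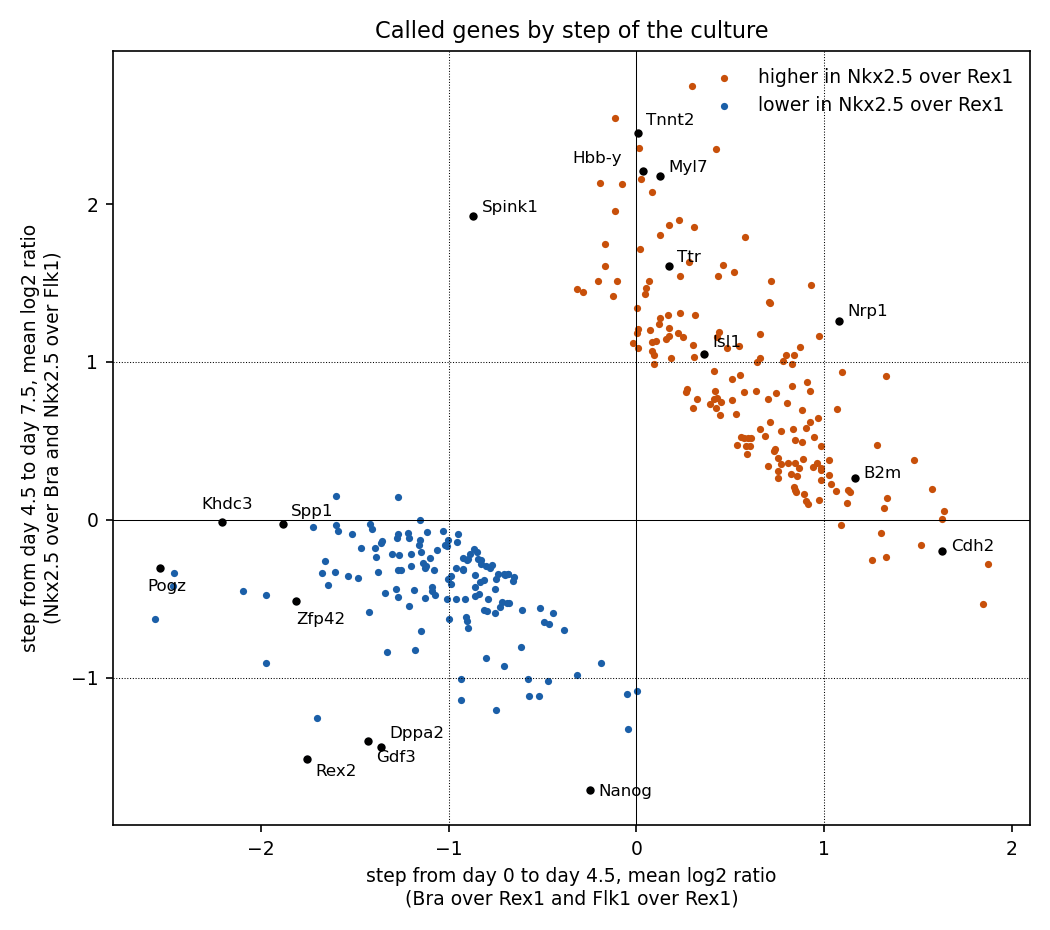
Mean log2 ratio over the step from day 0 to day 4.5 (horizontal) and from day 4.5 to day 7.5 (vertical) for each of the 174 higher and 144 lower genes, with dotted lines at the size of 1. The sum of the steps is at least 1 in size by the rule, which sets the diagonal edges. Tnnt2 lies at 0.01 and 2.45, B2m at 1.16 and 0.27, Khdc3 at -2.21 and -0.01 and Nanog at -0.25 and -1.71.

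All 7 higher sarcomere genes were placed in the later step. Tnnt2 had 0.11 and -0.09 against Rex1 in the Bra and Flk1 populations, and then 2.62 over Bra and 2.28 over Flk1. Myl7 had 0.17 and 0.08, then 2.63 and 1.73. Nkx2-5 followed the same course at -0.06 and 0.04, then 0.82 and 1.48. The globins Hbb-y, at -0.39 and 0.46, then 2.60 and 1.82, and Hbb-b2, at -0.10 and 0.13, then 2.52 and 2.19, were late as well, as were Ttr at 0.36 and -0.01, then 1.69 and 1.52, and Tgfb2 at -0.11 and 0.14, then 1.74 and 1.70. Cdh2 was early, at 1.85 and 1.41, then -0.33 and -0.07, and so was B2m at 1.03 and 1.29, then 0.24 and 0.29. The 5 higher epithelial genes were placed in neither step, Krt8 having 0.78 and 0.37, then 0.66 and 0.95.

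Of the 12 lower pluripotency genes 7 were placed in the earlier step, 3 in both, 1 in the later and 1 in neither. Zfp42 had -1.81 and -1.81, then -0.57 and -0.46, and Fbxo15 -2.70 and -2.23, then -0.67 and -0.16. Khdc3 and Spp1 showed the earlier step alone, at -2.13 and -2.28, then 0.08 and -0.10, and at -1.77 and -2.0, then -0.08 and 0.03. Rex2, Dppa2 and Gdf3 fell over both. Dppa2 had -1.58 and -1.14, then -1.09 and -1.78, and Gdf3 -1.47 and -1.39, then -1.48 and -1.33. Nanog was the late one, at 0.28 over Rex1 in Bra and -0.78 in Flk1, then -1.69 and -1.73. T, high in between, had 1.13 and 0.84, then -0.77 and -0.59, which sums to a ratio near 0 between the ends. Primitive streak genes as a list did the same, with medians of 0.44 and 0.22, then -0.39 and -0.28, and 0 of 24 passed in Nkx2.5 over Rex1. In that list Fgf8 had 2.47 and 1.79, then -1.10 and -0.71. Its other probe read -0.33, -0.56 and -1.09 for Nkx2.5 over Rex1, opposite to the probe used.

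Signalling pathways and housekeeping processes gave few or no calls, where 1.28% of all genes passed in either direction. At that share lists of this length may hold none, so these counts are not a result about the pathways. In Nkx2.5 over Rex1, 0 of 38 Wnt, 0 of 24 Notch, 0 of 24 FGF and 0 of 29 IGF, retinoid and other growth factor genes passed, with direct medians of 0.14, 0.04, 0.02 and 0.08. The members furthest from 0 by the smaller of direct and second readings were Wnt6 at -0.75, -0.60 and -1.02, the Notch ligand Jag1 at 0.77, 0.49 and 0.94, Fgf8 at 0.66, 1.36 and 1.08 and Igf1r at 0.68, 1.17 and 0.96. Wnt6 lies in the last 2 block rows. The other probe of Fgf8 read -0.33, -0.56 and -1.09, opposite to the probe used. Of 21 Nodal and activin genes 1 passed, Gdf3, given above. Anterior and posterior Hox genes gave 0 of 18 and 0 of 21. Of 19 lateral mesoderm genes 0 passed, with Tdgf1, the Nodal co-receptor Cripto, furthest at -1.34, -0.53 and -0.66. Of 26 glycolysis genes the muscle enolase Eno3 passed as higher, at 1.47, 1.43 and 0.78. Of 28 genes of fatty acid oxidation and cardiac energy use 0 passed, with Fabp3 at -0.87, -0.88 and -0.79. The 56 respiratory chain genes had medians of -0.05 and -0.03, and the 73 ribosomal protein genes 0.04 and 0.06, with 0 passing in either. Of the 4 spotted controls, with 24 spots each, Actb averaged 0.02 ± 0.04 (SD over spots of 1 array), Gapd 0.01 ± 0.05, Rps18 0.02 ± 0.05 and Ubb -0.09 ± 0.05.

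The error depended on signal. With genes split by signal into 5 groups of equal size, the direct reading differed from the second by an SD of 0.41 in the dimmest group and of 0.14 in the brightest. The deposited series table holds the scanner's own log2 ratios up to a constant, with neither the normexp correction nor the loess used here, and gives 2.08 for Tnnt2 and -2.85 for Dppa2. There all 161 of the 174 higher genes with a value were above 0, 110 of them at 1 or more, and all 144 lower genes were below 0, 92 of them at -1 or less.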

How the data were processed

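The authors deposited, per the file headers, scanner intensity values with a median signal and a background per channel and spot, a ratio of the channels, and a series table of log2 values. Set against each other, the table equalled the log2 ratio up to a constant for each array (range of differences 1.00e-06), so scale and direction were settled. Its column median here was -0.0578, and 765 spots marked Bad held values of unknown origin. Headers and labels name neither scanner software nor genome build.

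Foreground signals were corrected with normexp (offset 50) and normalised by loess within each of 48 blocks, with no weight on control spots (limma 3.58.1, R 4.3.3; later steps in Python 3.11.15). Array-wide loess was used first, and loess within blocks replaced it after its calls were seen to gather in 2 block rows. Probes were named through RefSeq symbols: 8056 by accession, 5226 by symbol, 5081 by synonym, 558 kept the file's name and 9924 have no name. A gene with several probes is read from its brightest.

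Named genes were the markers, the 12 highest and lowest genes above background in both populations, up to 6 of each dim in the other, and up to 5 passing and 1 opposing member of each list; RIKEN and predicted names were passed over. Myl2, Myl3, Tnni1, Actc1, Ttn, Csrp3, Myh6, Myh7, Hand2, Tbx1, Tbx5, Gata6, Atp2a2, Gata1, Cdh1, Pecam1, Sox2, Pou5f1, Tdh, Klf5 and Tcl1 were added to the rule's choice with their values known. Comparison, members and the 43 gene lists were chosen with earlier results of these data known. The call rule was tested on simulated data with the same error for every gene and every gene above background. That differs from these data, where error depended on signal and many genes were dim in Rex1, so it does not measure the rule's errors here. Some results of the rule's choice are not reported here.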

Additional observations from a re-analysis of the deposited data

How the results depend on the processing

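Each pair of populations has 1 array, so no value has replicate error, dye bias cannot be told apart from a difference between populations, and weak Rex1 signal limits the dimmest genes. No paired analysis was possible because each pair of populations was hybridised once. The array-wide loess, the median centring and scaling of blocks and the removal of the last 2 block rows were chosen after seeing the data. No named gene that had passed changed sign under any setting run. Signs of the other named genes and of list medians were not tracked, and some changed. From the series table T read -0.08, and the direct median of ribosomal protein genes was -0.18 in place of 0.04. Of 1369 values of named genes 1062 moved by less than the error of 1 array and 307 by more, and 6 of 516 list medians moved. These totals include a quantile scaling of mean signal between arrays, which leaves ratios unchanged by construction. Its 116 gene values and 43 list medians could not move.

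The count of 174 higher genes became 0 without background subtraction, 591 with median centring of each array, 285 from the series table, 602 with array-wide loess and 299 with median centring of each block. It became 362 on the direct reading alone, 35 and 485 at sizes of 1.5 and 0.7, and 100 where both populations had to be above background. The 144 lower genes became 3 without background subtraction, 91 with net signal floored at 1, 278 on the direct reading alone, and 38 and 431 at those sizes. The 55 higher genes of the later step became 0 without background subtraction, 33 with the floor, 27 from the series table and 25 at the size of 1.5. The 48 lower genes of the earlier step became 0 without background subtraction and 25 at the size of 1.5. The share of calls that were higher, 54.7%, was 69.6% with the floor, 75.4% with median centring of each array, 64.0% from the series table and 77.6% with array-wide loess. In the other direction it was 48.74% with spots marked Bad left out and 47.95% at the size of 1.5. Where both populations had to be above background it was 42.55%, so the direction with more calls depended on the setting. Without background subtraction the SD of direct ratios was 0.104, so few genes could reach the size; for the other settings the cause was not tested. The remaining settings stayed within 1.5 times each count. Zfp42 passed in 21 of 21 settings and Tnnt2 in 20, while Mmp2 passed in 11, Dazl and Sycp3 in 12 and Acta2 and Eno3 in 13. Some of the 21 settings could not lose a call by their design. They were the direct reading alone, the size of 0.7, no filter on dim genes and the quantile scaling of mean signal.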

Other observations

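Transcripts without a gene name divided unevenly between the directions. Of 9840 unnamed transcripts 40 were higher (0.41%) and 79 lower (0.80%), while of 14960 named genes 134 were higher (0.90%) and 65 lower (0.43%). The lowest direct log2 ratio of all, -3.72, belonged to an unnamed transcript. Unnamed transcripts had a median net Rex1 signal of 1902.2 against 3069 for named genes.

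Some genes, chosen after their values were seen, read high on the direct array alone. Lrp6, a Wnt co-receptor, had a direct ratio of 1.28 with net signals of 6712.5 and 2137, but 0.06 through Bra and 0.19 through Flk1, and Tnnc2, the fast skeletal troponin C, had 1.12 against 0.59 and 0.03.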
